A study of Rattus norvegicus with 40 samples.

Results

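Microglia of the cervical spinal cord were compared with microglia of the medulla in the same normoxia animals. The comparison took every normoxia library of the series, 20 of 40, and joined the cord and medulla library of each animal by the shared label number, which gave 10 pairs. The animals were Sprague Dawley offspring at 8 weeks of age, 5 males and 5 females. Their dams had breathed room air at 21% oxygen in sham cycles, 15 per hour for 8 hours a day, from gestational day 10 to 21. The 4 groups were the male normoxia medulla, the female normoxia medulla, the male normoxia cervical cord and the female normoxia cervical cord. Each held 5 libraries. The cord tissue was taken from C3 to C6. Cells were pulled from both tissues on magnetic beads with an antibody against CD11b. The 20 libraries of hypoxia offspring, whose dams had cycled between 21% and 10.5% oxygen, served to read the same genes in other animals. They also entered the fits and the scaling that span both exposures.

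Microglia are the resident macrophages of the central nervous system. They survey the tissue, clear debris and trim synapses, and their transcripts are known to vary between regions. CD11b is an integrin subunit that microglia share with other macrophages, monocytes and neutrophils, so the beads select myeloid cells rather than microglia alone. The medulla holds the circuits that generate breathing and borders the fourth ventricle. The mid-cervical cord holds the motor neurons of the diaphragm.

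The deposited table identifies genes by Ensembl number only, and none of the 32883 IDs could be paired with a symbol here. Gene functions and the defining markers of microglia or other cell types were therefore not examined, and genes are described by level, size of difference, spread and shared pattern. In such bulk libraries fewer cells of a type and less RNA per cell cannot be told apart. A total of 4 IDs were picked by a rule of size and are given in full.

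Medulla libraries were deeper than the cord library of the same animal in 10 of 10 animals. Totals ran from 11415285 to 24039411 reads in the medulla and from 8818241 to 15574494 reads in the cord, and more genes had counts in the medulla library in 10 of 10 animals. Levels are given as CPM, the reads of a gene per 1000000 reads of the library, with TMM scaling between libraries. On log2 CPM, a first principal component carried 37.6% of the variance. The cord libraries lay close together on it, from 20.3 to 52.4, while the medulla libraries spread from -105.2 to 19.4. In each animal the cord library lay on the positive side of the medulla library. A total of 3 medulla libraries stood apart at the negative end, male replicate 1 at -105.2, female replicate 1 at -88.0 and female replicate 2 at -74.1. The medulla library of female replicate 4, at 19.4, lay next to the lowest cord library. Call counts, sizes of difference, the 2 falling IDs picked by the rule and the genes varying with them are also given without the 3 animals at the negative end. Calls by level, overlap and shares of reads are given with all 10 animals only.

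**Figure D1:**
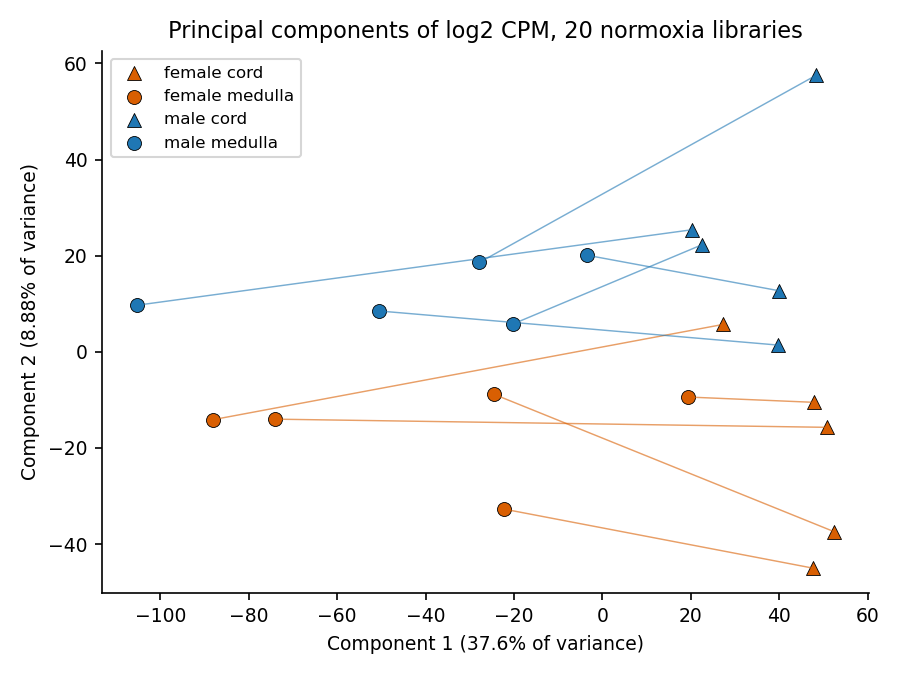
Scores of the 20 normoxia libraries on the first 2 principal components of log2 CPM, in arbitrary units; circles are medulla libraries, triangles cord libraries, colours the sexes, and lines join the libraries of an animal. Cord libraries sit between 20.3 and 52.4 on the horizontal axis and medulla libraries between -105.2 and 19.4.

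Cord and medulla libraries differed in nearly equal numbers of genes in each direction, but not to an equal extent. Of 14169 genes tested, 4562 (32.2%) were called at an adjusted p under 0.05, with 2211 higher and 2351 lower in the cord (edgeR quasi-likelihood test with animal as block, Benjamini-Hochberg adjustment, n = 10 pairs). Genes higher in the cord changed by a median of 1.3-fold, and 267 of the 2211 (12.1%) by over 2-fold. Genes lower in the cord changed by a median of 1.47-fold, and 807 of the 2351 (34.3%) by over 2-fold. Differences over 16-fold numbered 122 among the lower genes and 1 among the higher genes. The median log2 fold change over all genes tested was -0.01. Without the 3 animals whose medulla libraries stood apart, 2043 genes were called, 993 higher and 1050 lower. With hypoxia libraries sharing the fit, 2092 normoxia genes were called, 788 higher and 1304 lower.

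The direction of the calls varied with expression level. These shares come from libraries of unequal depth, shallower in the cord in 10 of 10 animals, and were not recomputed at equal depth. Among 1390 genes whose average log2 CPM lay from 7 to 9, 30.9% were called higher and 17.3% lower in the cord. Between 5 and 7 the shares were 22.9% and 14.7% of 3979 genes, and above 9 they were 26.4% and 22.5% of 227 genes. The order turned at lower levels. From 3 to 5, 12.1% of 3807 genes were higher and 17.2% lower, and from 1 to 3, 8.36% of 2609 genes were higher and 20.3% lower. Below 1, 6.12% of 2157 genes were higher and 13.4% lower. Of the lower genes over 2-fold, 1 lay between 7 and 9 and 368 lay between 1 and 3. Above 9, 8 of the lower and 7 of the higher genes were over 2-fold. Among the 100 genes with the highest average level, 45 were called, 19 higher and 26 lower, and 8 differed by over 2-fold, with ENSRNOG00000016275 the most lowered at -9.91 on the log2 scale. Those 100 genes held 25.4% of the scaled counts in the medulla and 24.5% in the cord.

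**Figure D2:**
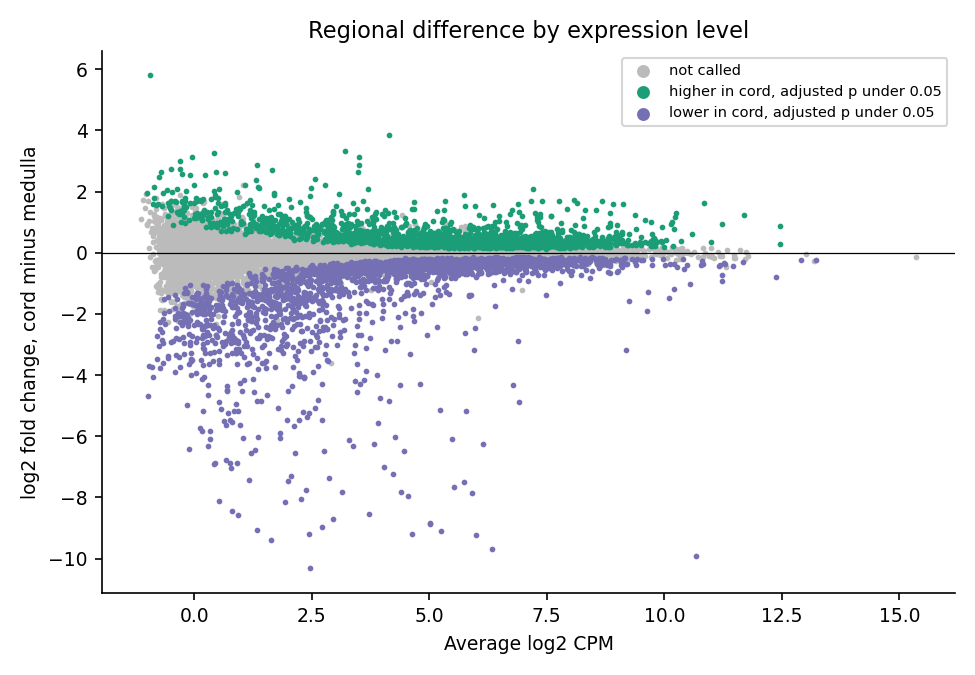
Log2 fold change, cord minus medulla, against average log2 CPM for the 14169 genes tested; each point is a gene, green and purple points are the 2211 higher and 2351 lower genes, and grey points were not called. The lower genes extend past -4 on the log2 scale (122 genes), and 1 higher gene passes 4; most higher genes over 2-fold lie below an average log2 CPM of 3 (113 below 1 and 70 from 1 to 3).

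In terms of reads, the 2 sets of called genes moved in opposite ways between the regions. The 2211 higher genes took 18.1% to 23.3% of the reads of medulla libraries (median 20.1%) and 23.7% to 29.4% of the reads of cord libraries (median 28.0%). The 2351 lower genes took 18.6% to 25.5% in the medulla (median 21.6%) and 13.9% to 16.9% in the cord (median 15.5%). Since these genes were chosen for this difference, the shares show its weight in the libraries and are no further test. The 122 genes lowered over 16-fold took 0.0158% to 2.72% of the reads of medulla libraries and at most 0.00618% in the cord.

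Few genes separated the regions without overlap. In 187 of 14169 genes (1.32%) all 10 cord libraries lay on one side of all 10 medulla libraries, 102 higher (0.72%) and 85 lower (0.6%) in the cord. Every one of the 187 was also called. The 102 higher genes differed by 1.17- to 7.37-fold with a median of 1.59-fold. The 85 lower genes differed by 1.21- to 962-fold with a median of 5.12-fold. Within animals the agreement was wider. The cord value lay on the same side of the medulla value in 10 of 10 animals for 780 of the higher and 758 of the lower genes. Over all genes tested, the called ones included, 1556 (11.0%) did so. The calls rest on these same paired differences, so this agreement describes the called genes and is no further test.

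The most lowered gene among those with an average log2 CPM of at least 3 was ENSRNOG00000016275. In the medulla of males 1 to 5 it stood at 15800, 1420, 1920, 1020 and 72.7 CPM, and in the medulla of females 1 to 5 at 5760, 5870, 408, 73.2 and 258 CPM. In the cord, males 1 to 5 had 12.5, 5.93, 11.7, 0 and 0.363 CPM. Of the 5 female cord libraries 4 had no read of it and replicate 5 had 0.97 CPM. No cord value reached the lowest medulla value, although medulla libraries themselves differed widely. The log2 fold change was -9.91 (SE 0.75, edgeR adjusted p = 1.3e-06, lower in 10 of 10 animals). Without the 3 animals whose medulla libraries stood apart, the log2 fold change was -8.43. Over all 2351 lower genes, the largest fall was -10.31 on the log2 scale, in another gene.

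ENSRNOG00000026870 followed nearly the same order of animals. Its medulla levels were 660, 59.6, 73.7, 37.8 and 2.56 CPM in males 1 to 5. In females 1 to 5 they were 385, 347, 26.0, 2.59 and 22.2 CPM. Male cord libraries held 0.711, 0.341, 0.488, 0 and 0 CPM, and all 5 female cord libraries held 0 reads. Cord and medulla values did not overlap, and the 3 animals with the highest medulla levels were those of ENSRNOG00000016275. The log2 fold change was -9.68 (SE 0.38, edgeR adjusted p = 1.67e-09, lower in 10 of 10 animals). Without the 3 animals whose medulla libraries stood apart, the log2 fold change was -7.92. In females, where the cord group was at 0, the pooled medulla level was at least 2790-fold higher than the limit set by 3 counts summed over its libraries, a limit for counting error alone.

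The 2 falling IDs varied together. From the lowest to the highest medulla library ENSRNOG00000016275 moved 217-fold and ENSRNOG00000026870 257-fold, while their ratio moved far less. Reads of ENSRNOG00000026870 were 3.53% to 4.18% of the reads of ENSRNOG00000016275 in the 5 male medulla libraries. In the female medulla libraries the share was 3.54% to 8.61%. Besides the lead ID ENSRNOG00000016275, 145 genes, ENSRNOG00000026870 among them, had a correlation of at least 0.95 with it in log2 CPM over the 10 normoxia medulla libraries, a list drawn from medulla values after the first ID was known, and therefore described without a test. The points share library depth. Of the 145 genes, 141 were called lower and 0 higher in the cord, where 16.6% of all genes tested were called lower. The medulla values that chose the list also enter this comparison, so the count describes the list and is no further test. Their median log2 fold change was -4.82, and they made up 89 of the 122 genes lowered over 16-fold (73.0%). Without symbols no cell type marker could be read among them, and whether their reads came from cells other than microglia was not tested.

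The summed level of these genes with the lead ID set medulla libraries apart from each other far more than cord libraries. Scaled over all 40 libraries, it ran from 320 to 34200 CPM in the male normoxia medulla and from 310 to 15500 CPM in the female normoxia medulla. The highest values belonged to male replicate 1 (34200 CPM), female replicate 1 (15500 CPM) and female replicate 2 (14700 CPM), the same 3 libraries that stood apart on the first component. In normoxia cord libraries the sum stayed between 123 and 196 CPM. In hypoxia animals, which had no part in choosing the list, it ran from 184 to 17600 CPM in the medulla and from 112 to 296 CPM in the cord. The lowest hypoxia medulla value thus lay within the range of the hypoxia cord. Correlations with the lead ID over the 10 hypoxia medulla libraries had a median of 0.853, and of 0.924 without female hypoxia medulla replicate 3, a library of low depth. Of the 145 genes, 9 reached 0.95 there, and 34 without that library.

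**Figure D3:**
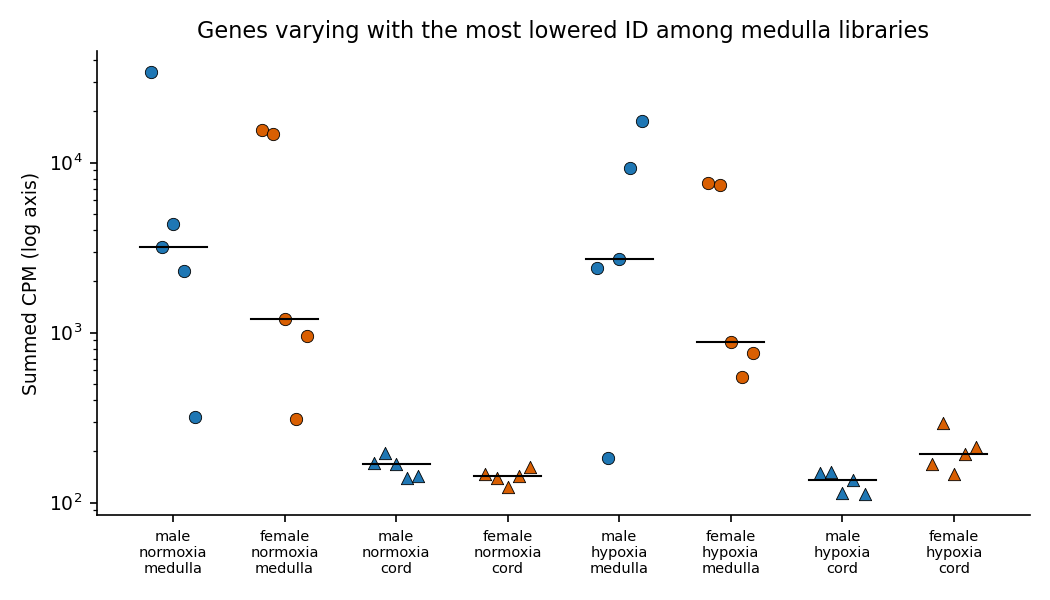
Summed CPM (log axis) of ENSRNOG00000016275 and the 145 genes that varied with it among normoxia medulla libraries, for each of the 40 libraries; points are libraries by group, colours the sexes, and bars the group medians. Normoxia medulla libraries run from 310 to 34200 CPM and normoxia cord libraries from 123 to 196 CPM.

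Most lower genes missed even a looser cut for this pattern. With the correlation lowered to 0.9, the list held 238 of the 2351 lower genes (10.1%), with a median difference of 12.3-fold. Of all 279 genes at this cut, 62 reached 0.9 over the hypoxia medulla libraries, and 140 without female hypoxia medulla replicate 3. A gene that missed the cut may therefore still share the pattern. The other 2113 had a median difference of 1.41-fold, 572 of them were over 2-fold and 17 over 16-fold. Without the 3 animals at the negative end, 131 of the 145 genes passed the filter on low counts, 87 of these were called lower, and their median log2 fold change was -3.27. In the same fit the higher genes had a median difference of 1.38-fold and the lower genes of 1.54-fold, and 61 lower genes exceeded 16-fold. The part of these libraries in the other differences was not tested beyond this.

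Of the called genes whose average log2 CPM was 3 or higher and that moved the same way in at least 9 of 10 animals, ENSRNOG00000057527 and ENSRNOG00000024115 had the highest log2 fold changes. A gene of lower level reached 5.80. ENSRNOG00000057527 stood at 0.492, 0.78, 0.612, 1.15 and 1.36 CPM in the medulla of males 1 to 5 and at 1.34, 0.876, 1.66, 18.9 and 0.642 CPM in the medulla of females 1 to 5. In the cord it was 0.129, 3.61, 1.53, 27.9 and 21.1 CPM in males 1 to 5 and 39.4, 54.1, 43.5, 57.0 and 79.2 CPM in females 1 to 5. The female groups did not overlap. Among males, the cord value of replicate 1 lay below the medulla values, 0.492 to 1.36 CPM, and the other cord values lay above them. The cord values of males 1 to 3 did not exceed the highest medulla value of either sex, 18.9 CPM in female replicate 4. The log2 fold change was 3.83 (SE 0.58, edgeR adjusted p = 0.00035, higher in 9 of 10 animals). The female and male differences, 4.60 and 2.87 on the log2 scale, did not pass the test of their difference (edgeR adjusted p = 0.538). In hypoxia offspring it averaged 43.3 CPM in the male cord and 1.62 CPM in the female cord, against 0.896 and 1.08 CPM in the medulla of males and females.

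ENSRNOG00000024115 was higher in the cord in 10 of 10 animals. Medulla values were 0.345, 1.36, 1.88, 0.33 and 1.47 CPM in males 1 to 5 and 0.383, 3.33, 2.22, 0 and 7.01 CPM in females 1 to 5. Cord values were 3.3, 23.2, 6.13, 4.67 and 21.9 CPM in males 1 to 5 and 43.4, 13.9, 20.7, 2.92 and 25.2 CPM in females 1 to 5. The regions overlapped across animals, where female medulla replicate 5 exceeded 4 cord libraries, but not within any animal. The log2 fold change was 3.32 (SE 0.42, edgeR adjusted p = 9.67e-05). Males and females had nearly the same difference, 3.32 and 3.30 on the log2 scale.

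**Figure D4:**
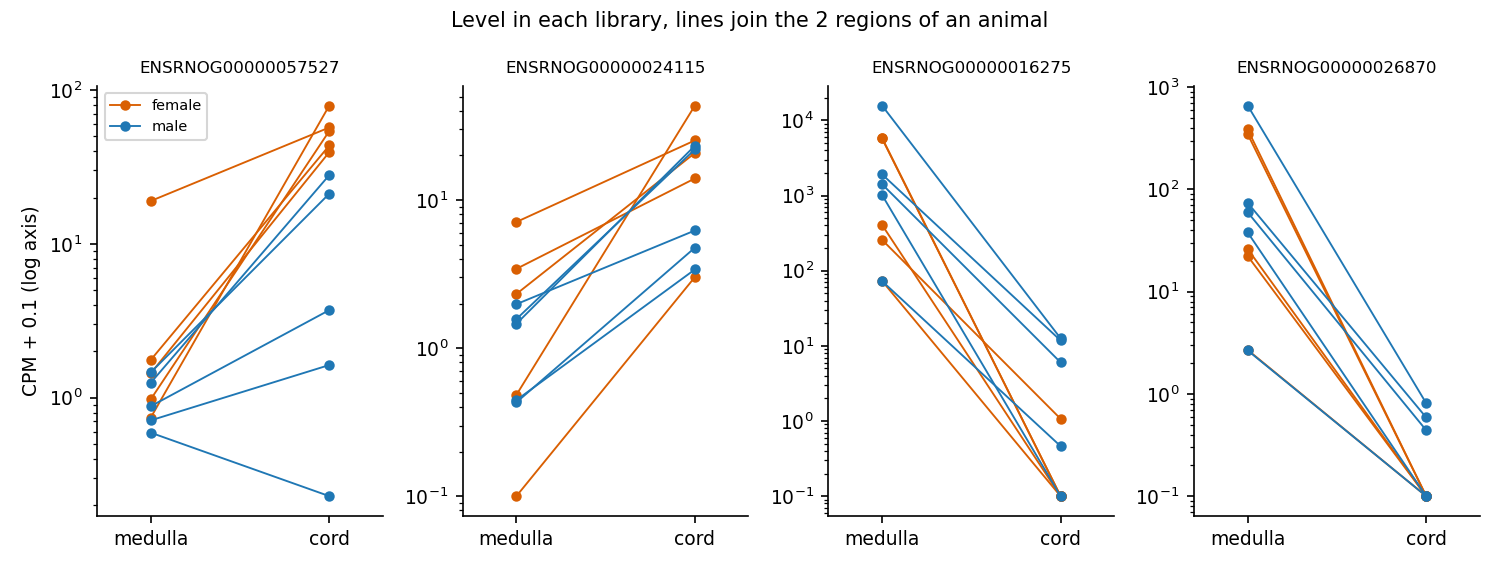
Level of the 4 IDs in each normoxia library as CPM + 0.1 on a log axis; each line joins the medulla and the cord library of an animal, coloured by sex. ENSRNOG00000016275 and ENSRNOG00000026870 fall in 10 of 10 animals, ENSRNOG00000024115 rises in 10 of 10 and ENSRNOG00000057527 in 9 of 10.

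Regional differences were then read in animals that had no part in the calls. Each normoxia animal was left out in turn, genes were called in the other 9, and the left-out animal was read. Of the genes called higher in the cord elsewhere, 60.2% to 95% were also higher in the left-out animal, with a median over animals of 91.3%. For genes called lower the range was 62.6% to 97.6%. Over all genes, 45.3% to 52.9% lay above 0 in an animal. Male replicate 2 had the lowest shares, 60.2% and 62.6%, with median log2 differences of 0.06 for the higher and -0.14 for the lower genes. Male replicate 3 had the largest medians, 0.54 and -0.73. All 10 animals thus followed the direction of the other 9 on balance, by differing amounts.

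Single animals also differed in how many genes were far apart between their 2 regions. Among 9403 genes whose average log2 CPM was 3 or more, those over 2-fold higher in the cord numbered 84 in female replicate 5 to 366 in female replicate 1. Those over 2-fold lower numbered 101 in male replicate 2 to 386 in female replicate 3. Lower genes outnumbered higher genes in 7 of 10 animals.

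Genes called in normoxia offspring were also read in the 10 hypoxia pairs, which share no library with them. In hypoxia males 66.4% to 96.7% of the higher genes and 62.7% to 97.8% of the lower genes had the same sign per animal. The medians over these genes lay on the side of the call in 5 of 5 males, at 0.15 to 0.79 for the higher and -1.12 to -0.17 for the lower genes on the log2 scale. In hypoxia females the shares were 25.4% to 61.4% and 37.9% to 65.6%. Their medians were -0.37 to 0.10 for the higher and -0.18 to 0.41 for the lower genes. The regional difference was tested between exposures in a fit over all 40 libraries with animal as block. In females 3127 of 14832 genes (21.1%) differed, and in males 0 did with edgeR, where 345 genes had an unadjusted p under 0.05. Without the animal of female hypoxia replicate 3 these counts were 3558 of 15026 (23.7%) and 0, with 607 male genes at an unadjusted p under 0.05. Pooled over the sexes, 0 genes were called with edgeR and 2300 had an unadjusted p under 0.05.

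**Figure D5:**
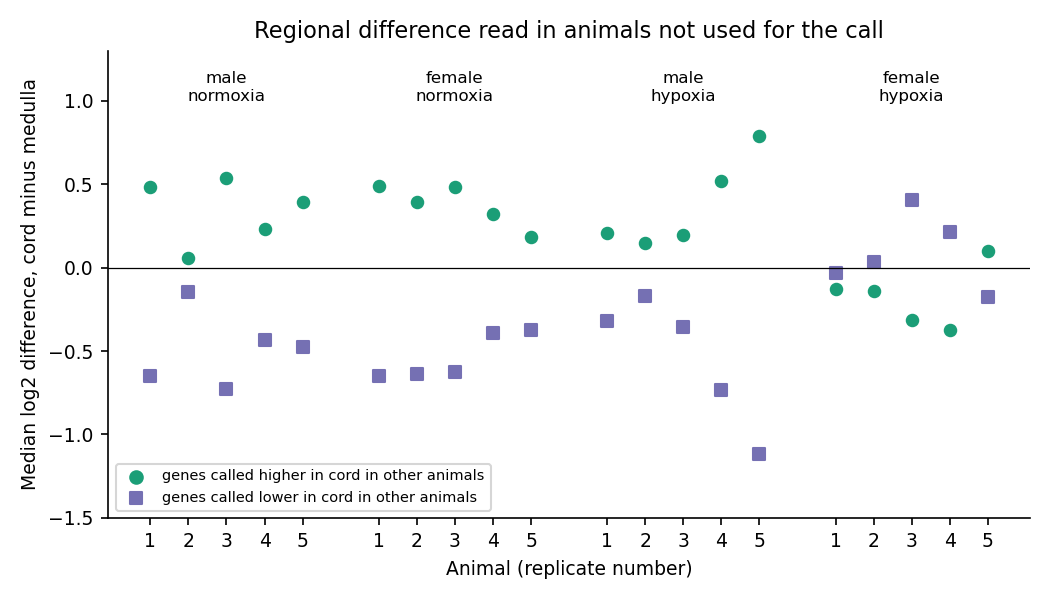
Median log2 difference, cord minus medulla, of genes called higher (green) and lower (purple) in the cord, read in animals not used for the call; normoxia animals were read with calls from the other 9, hypoxia animals with calls from all 10 normoxia animals. All 10 normoxia and all 5 male hypoxia animals have green above 0 and purple below 0, while female hypoxia animals run from -0.37 to 0.10 for green and from -0.18 to 0.41 for purple.

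Genes called in 1 sex mostly had the same direction in the other. In males 2409 genes (17.0%) were called, 1247 higher and 1162 lower in the cord, and in females 3328 (23.5%), 1549 higher and 1779 lower (edgeR quasi-likelihood test, 5 pairs each with a shared spread). Genes called higher in both numbered 660, which was 52.9% of the male and 42.6% of the female list. Genes called lower in both numbered 642, or 55.2% of the male and 36.1% of the female list, and 25 genes were called in opposite directions. Male calls had the same sign in females for 91.2% of the higher and 91.9% of the lower genes. Female calls had the same sign in males for 91.7% of the higher and 85.8% of the lower genes. No such share over all genes tested is given beside these. The counts moved with single animals. The male count was 1118, 1539 and 1237 without male replicates 3, 4 and 5. The female count was 1793, 2017 and 1931 without female replicates 1, 2 and 3, and 544 without the 3 animals whose medulla libraries stood apart.

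A difference between the sexes in the regional difference was called for 19 of 14169 genes (0.134%), all with a more negative cord minus medulla difference in females (edgeR interaction test, adjusted p from 0.0165 to 0.0449). One of them had libraries from 0 to 522 CPM in the medulla and from 0 to 857 CPM in the cord, so its fitted difference is not quoted. In the remaining 18 all female differences were negative, from -2.67 to -0.28 on the log2 scale with a median of -0.69. The male differences ran from -0.27 to 0.56 with a median of 0.23. Of the 18 genes, 6 were called higher and 1 lower in the male cord, and 16 averaged a log2 CPM over 5. The count was 0 without male replicate 2, 3 or 5 or female replicate 1, 2 or 5. In those 6 fits edgeR gave 1395 to 2046 genes at an unadjusted p under 0.05, against 1854 with all animals. It was 230 without male replicate 1, and 8, 1 and 2 without male replicate 4 and female replicates 3 and 4. DESeq2 called 468 genes and limma voom with quality weights 238.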

How the data were processed

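RNA sequencing libraries of CD11b-selected cells were compared between 2 regions of 10 normoxia animals. The authors deposited raw read counts per Ensembl gene, not normalized, with 1 column per library. The submitters' processing notes name TopHat2 2.1, HTSeq and edgeR with build rn6. No source used here gives the annotation release, strand setting or filters. Overlapping or near-identical genes may thus have shared or split reads.

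Genes were kept with filterByExpr by group (minimum count of 10) and scaled by TMM in edgeR 4.0.16 (R 4.3.3). The quasi-likelihood F test was fitted to the 20 normoxia libraries with animal as block, and the tests by sex added a region by sex term. A standard error is the log2 fold change divided by the root of its F value. Log2 CPM used a prior count of 2. DESeq2 1.42.0, limma 3.58.1 with voom, RLE factors, no filter, no block, all 40 libraries, thinning to 8818241 reads and leaving out each animal were alternatives; leaving out 3 animals was chosen after seeing the data. The fitting code was tested on simulated data.

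The series design takes both regions from an animal and the labels share the number. Deviations from group means correlated positively in 10 of 10 pairs (0.088 to 0.3). Each medulla library was also set against the 5 cord libraries of its sex only, and 7 of 10 correlated best with their own. No 2 libraries of the same group were identical, and pairs across groups were not checked. Whether numbers also mark litters is not given, so males and females may include littermates.

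The reference table held 0 Ensembl IDs in 47357 rows, so 42 gene lists of pathways and cell type markers could not be applied, and no sequence was matched. The rule for named genes ranked called genes by log2 fold change, given an average log2 CPM of at least 3 and the same direction in at least 9 of 10 animals. It asked for symbols; without them its order gave 2 IDs per direction. The comparison, rule and lists were chosen with earlier results of these data known.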

Additional observations from a re-analysis of the deposited data

Results flagged for a closer look

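Of 28 sets of 5 libraries examined, 6 had a value farther from the rest than Dixon's 95% limit allows. For normally distributed values chance gives about 5% of sets. The CPM of the picked IDs were skewed, so the 6 sets are listed and not weighed against that rate. Male normoxia medulla replicate 1 was the highest of its group for ENSRNOG00000016275 (15800 CPM), for ENSRNOG00000026870 (660 CPM) and for the summed level of the genes that varied with them (34200 CPM), so these 3 are not independent. Female normoxia cord replicate 5 was the only library of its group with reads of ENSRNOG00000016275 (0.97 CPM). Female normoxia medulla replicate 4 was the highest of its group for ENSRNOG00000057527 (18.9 CPM). Female normoxia cord replicate 1 was the lowest of its group on the first principal component (27.3).

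The regional difference differed between the sexes in 19 genes by the interaction test. It differed between normoxia and hypoxia females in 3127 genes, and in 3558 without the animal of female hypoxia replicate 3.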

How the results depend on the processing

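The total of 4562 calls stayed within 1.5 times under RLE factors, no filter, DESeq2, limma voom, thinning and no block. Without the replicate block the comparison was unpaired and gave 4297 genes, 3999 of them among the 4562. Other fits gave fewer: all 40 libraries 2092 (788 higher, 1304 lower), and leaving out the 3 animals whose medulla libraries stood apart 2043 (993 higher, 1050 lower). Leaving out single animals gave 3616 to 4959 calls, 1547 to 2308 higher and 1885 to 2651 lower. In males the count was 1055 with all 40 libraries, 1427 with the 10 male libraries alone, 1362 without the 3 animals and 1118 to 2732 without single animals. In females it was 1201 with all 40 libraries, 544 without the 3 animals and 1793 to 3488 without single animals. The sex interaction gave 4 genes without the block, 122 without the filter, 468 with DESeq2, 238 with limma voom, 31 after thinning, 0 with all 40 libraries (932 at an unadjusted p under 0.05 with edgeR), 2 without the 3 animals and 0 to 230 without single animals. Why these counts moved was not tested. The 4 named IDs kept direction and call in 72 of 72 alternatives, which share most of their libraries. These IDs were picked for large, called differences in the same libraries, so the count is no further test. Without the filter on low counts the calls split into 1604 higher and 2740 lower. Depth was lower in the cord in 10 of 10 animals, and with all totals thinned to 8818241 reads 4124 genes were called, 3921 of them among the 4562. Calls by expression level were not recomputed after thinning.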
